A study of Mus musculus with 5 samples.

Results

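Cytosolic ribosomal protein genes encode the protein parts of the ribosome outside mitochondria. They were chosen by name: every symbol that begins with Rps or Rpl and a number, together with Rplp0, Rplp1, Rplp2, Rpsa and Fau. Names containing -ps (43 pseudogenes) and the 6 Rps6k genes, which encode kinases, were left out. The rule found 87 of the 10290 genes in the tables, 37 of the small (40S) subunit and 50 of the large (60S) subunit. Standard subunit proteins are encoded by 78 of them, 32 small and 46 large. The other 9 are the paralogs Rpl22l1, Rpl36al, Rpl7l1 and Rps27l, the copies Rps27rt, Rpl37rt, Rps12l1 and Rps3a2, and Rps19bp1, whose product binds a ribosomal protein and is not one.

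The study sorted CD4 T cells from the colon and from the lymph node of mice with autoimmune colitis, and sequenced the 3′ ends of their poly(A) RNA. Treated mice received 980 nm laser light, called photobiomodulation in the field, at 1.22 W and 80% duty on a 4 cm2 spot, in sessions of 5 minutes repeated at intervals of 2 days. The 4 libraries analysed crossed tissue with treatment, 1 of each kind, and are called colon or lymph node, control or light. Strain, sex, age, the way colitis was induced and the number of mice per library are not given in the sources used here. A difference between single libraries cannot be set against the spread of replicates, so none below carries a p-value.

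A ribosome joins the small subunit, which reads the mRNA, to the large subunit, which forms the peptide bond and feeds the new chain through an exit tunnel. The mRNAs of ribosomal proteins mostly begin with a C followed by a run of pyrimidines, called a 5′ terminal oligopyrimidine or TOP motif, through which mTOR signalling sets their translation as a group. Resting T cells hold few ribosomes and build many when an antigen activates them. Ribosomal protein transcripts are among the most counted in lymphocyte libraries.

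Total counts were 971204 for lymph node control, 1068832 for lymph node light, 1959269 for colon light and 433663 for colon control. Barcode columns of a table overlap and count a molecule repeatedly, and the number of independent counts behind them, called molecule-equivalents here, was about 11500, 21214, 39283 and 6180. Intervals are at 95%, were computed from molecule-equivalents, and reflect counting error alone. The control tables carry the same lines for Cd4 and the CD3 chain genes, and all 4 tables similar ones for Foxp3, so these were left out of colon control and of all libraries, respectively. No line of a member repeated, the largest correlation by column position between tables being 0.174 for Rpl10. The colon control library stood apart throughout. Its T-cell markers (8 genes without the repeated lines) came to 2.65 molecule-equivalents with 4 of 8 at 0, among them Trac and Trbc1, against 95.5 with all 8 counted in the lymph node control. Myeloid markers (8 of 11 listed are in the tables) took 0.0341% of counts in lymph node control, 0.0507% in lymph node light, 0.225% in colon light and 0.0618% in colon control. No epithelial marker of 11 was in the tables. In sorted bulk cells, fewer cells of a type and less RNA per cell cannot be told apart.

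Ribosomal protein mRNA took 14.5% of counts in the lymph node control (13.9 to 15.2), 11.8% in the lymph node light (11.4 to 12.3), 9.96% in the colon light (9.66 to 10.3) and 2.10% in the colon control (1.76 to 2.49). The lymph node control was highest and the colon control lowest, and no interval touched another. The denominator of these shares holds ribosomal RNA in unequal amounts: the 45S ribosomal RNA gene took 10.5%, 15.3%, 28.4% and 5.02% of counts in the same order. Together, the 45S gene, the noncoding RNA gene Gm12374 and mitochondrial ribosomal RNA took 15.0%, 19.4%, 37.9% and 23.8%. With all of these taken out of the total, the shares became 17.1%, 14.7%, 16.0% and 2.75%, and the colon light library then stood above the lymph node light. Totals without ribosomal RNA, below and in the figures, leave out Gm12374 as well. All 78 standard members had a count in 3 libraries, while 55 had one in the colon control.

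**Figure D1:**
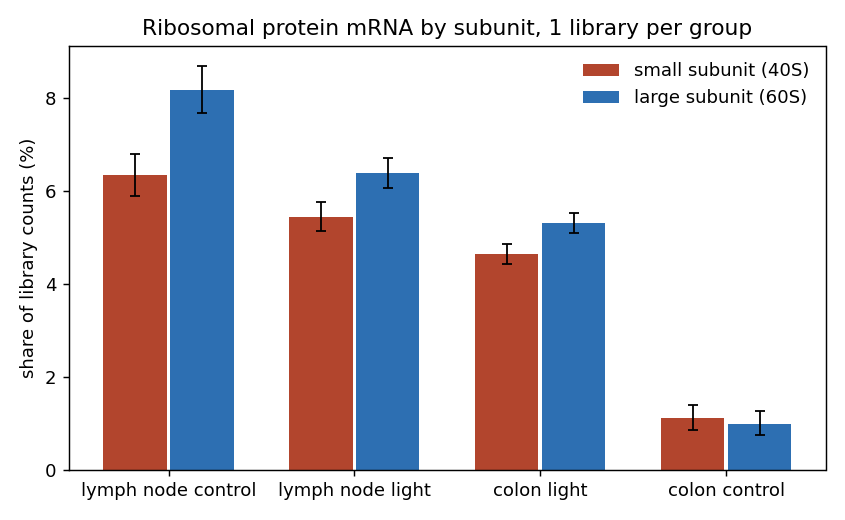
Bars give the percent of all counts of a library held by small-subunit (red) and large-subunit (blue) ribosomal protein genes, with 95% counting intervals and 1 library per group. Large-subunit genes hold more than small-subunit genes in the lymph node control (8.18% against 6.34%), the lymph node light (6.39% against 5.45%) and the colon light library (5.31% against 4.65%), and 0.988% against 1.11% in the colon control; with ribosomal RNA left out of the totals, the colon light library passes the lymph node light.

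The balance between the subunits does not depend on the library total. Small-subunit genes held 43.7% of member counts in the lymph node control (41.3 to 46.1), 46.0% in the lymph node light (44.1 to 48.0), 46.7% in the colon light (45.1 to 48.3) and 52.9% in the colon control (43.9 to 61.7). The log2 change of the small to large ratio after light was 0.14 in the lymph node (-0.05 to 0.32), an interval that includes 0. Between tissues after light it was 0.04 (-0.11 to 0.18). In the colon it was -0.36 for light against control (-0.90 to 0.16). The colon control against the lymph node control gave 0.53, with an interval of 0.005 to 1.09 whose lower end lies at about 0. Leaving out Rps14 alone, a choice made after seeing the data, took that value to 0.28 (-0.29 to 0.86).

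Single members kept much the same order of level in 3 of the 4 libraries. Over the 78 standard members, Spearman's correlation of CPM (counts scaled so that each library sums to 1000000) was 0.94 between the lymph node libraries, 0.90 between the light libraries and 0.88 between colon light and lymph node control. The colon control correlated with these at 0.50 to 0.56, where the 78 came to 127 molecule-equivalents and 23 of them had no count. No correlation at matched depth was computed, so another order of members and counting noise cannot be told apart there. All these correlations are descriptions across genes, which are not independent, and each gene carries its own mapping and capture efficiency into every library. Levels were not divided by length, so values below compare a gene between libraries and never one gene with another.

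**Figure D2:**
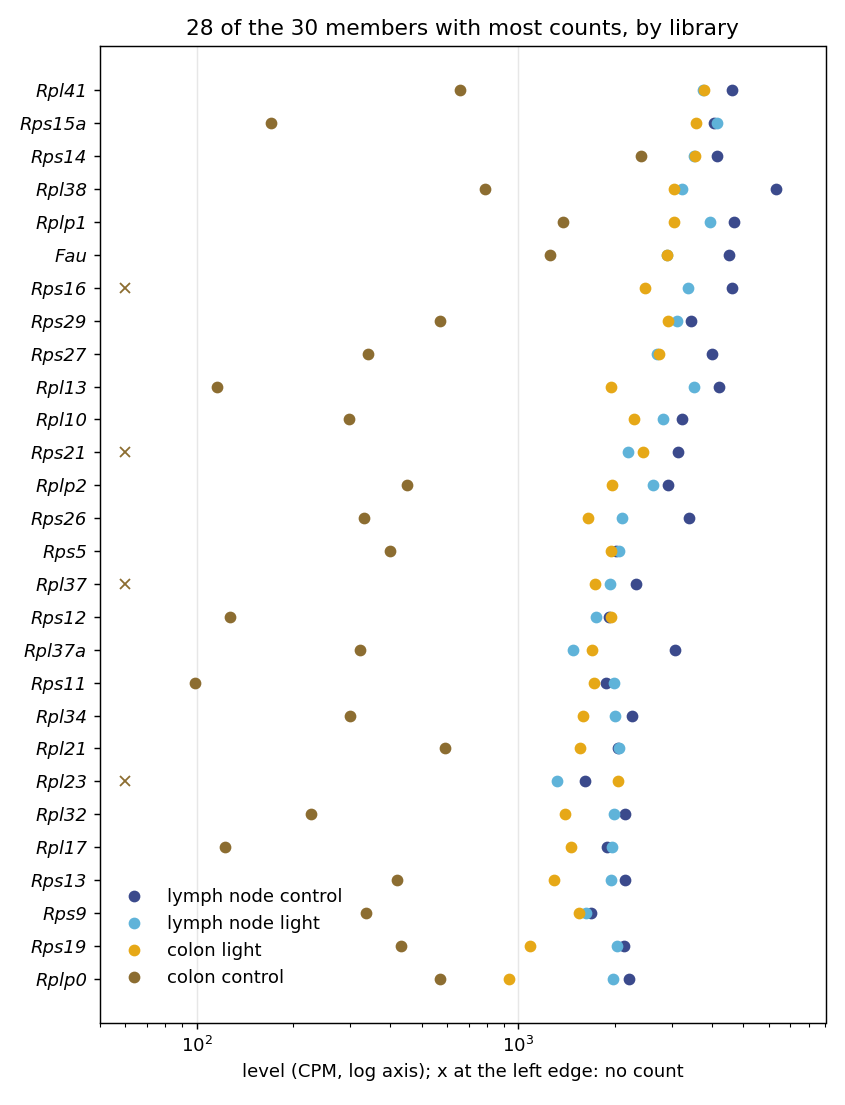
Each dot is the CPM (log axis) of a gene in 1 library, for 28 of the 30 members with the most counts over the 2 lymph node libraries and colon light, and a cross marks no count. The 3 deeper libraries lie close together for each gene, the colon control (brown) lies to the left, and Rps16, Rps21, Rpl37 and Rpl23 have no count there.

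The first comparison asks what light did in lymph node CD4 T cells, where T-cell markers gave a log2 ratio of -0.23 for light against control (-0.57 to 0.11, over 12 markers). Without Cd4 and the CD3 chain genes, whose lines are the same in both control tables, it was -0.30 (-0.69 to 0.09, over 8 markers). Ribosomal protein mRNA together stood at a log2 ratio of -0.30 for light against control (-0.39 to -0.21), 1.23-fold lower as a share of all counts, but at 0.19 when libraries were scaled by the median ratio of genes. That scaling was set by every gene with a count in both libraries. It moved the median of all genes that passed the filter given below by 0.48, from -0.16 to 0.33, and so did not place it at 0. Small-subunit genes gave -0.22 (-0.35 to -0.08) and large-subunit genes -0.36 (-0.48 to -0.24), each on the library-total scale. Of the 87 members, 64 passed the filter, a minimum of 20 molecule-equivalents over both libraries. Their median was -0.22, against -0.16 for all 188 genes that passed and -0.10 for the 124 that were not members. A change of scaling shifts members and all genes alike, so it cannot test the distance of -0.07 between them (-0.06 without ribosomal RNA in the total). Without the filter on low counts that distance was -0.91. On the library-total scale 51 of the 64 lay below 0 and 13 above.

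On the library-total scale, at least 2-fold lower were 2 members, Rpl37a and Rpl36a, beside 5.85% of all genes tested, and at least 2-fold higher were 0, beside 5.32% (in either direction 2 members, beside 11.2%). An interval wholly below 0 was found for 6 members (9.04% of all genes tested) and one wholly above 0 for 0 members (5.32% of all genes). The count of 6 of 64 is 9.38%, close to the background. These calls turned with the scaling: under median-of-ratios scaling 0 members were at least 2-fold lower and 3 at least 2-fold higher (1.06% and 17.6% of all genes tested), with 0 intervals below 0 and 1 above. Without ribosomal RNA in the totals 0 members were 2-fold apart, with 3 intervals below 0 and 0 above. Among the 6 on the library-total scale were Rpl37a, Rpl38, Rpl27a, Rps26 and Fau. Rpl36a was not among them: its interval included 0, on 15.9 molecule-equivalents in the control and 14.1 after light. Measured against the change of all members together, which no scaling moves, 2 of 64 lay below with their interval, Rpl37a and Rpl38, and 0 above, while 3.72% and 7.98% of all genes tested did. The 2 of 64 are 3.13%, close to the background.

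**Figure D3:**
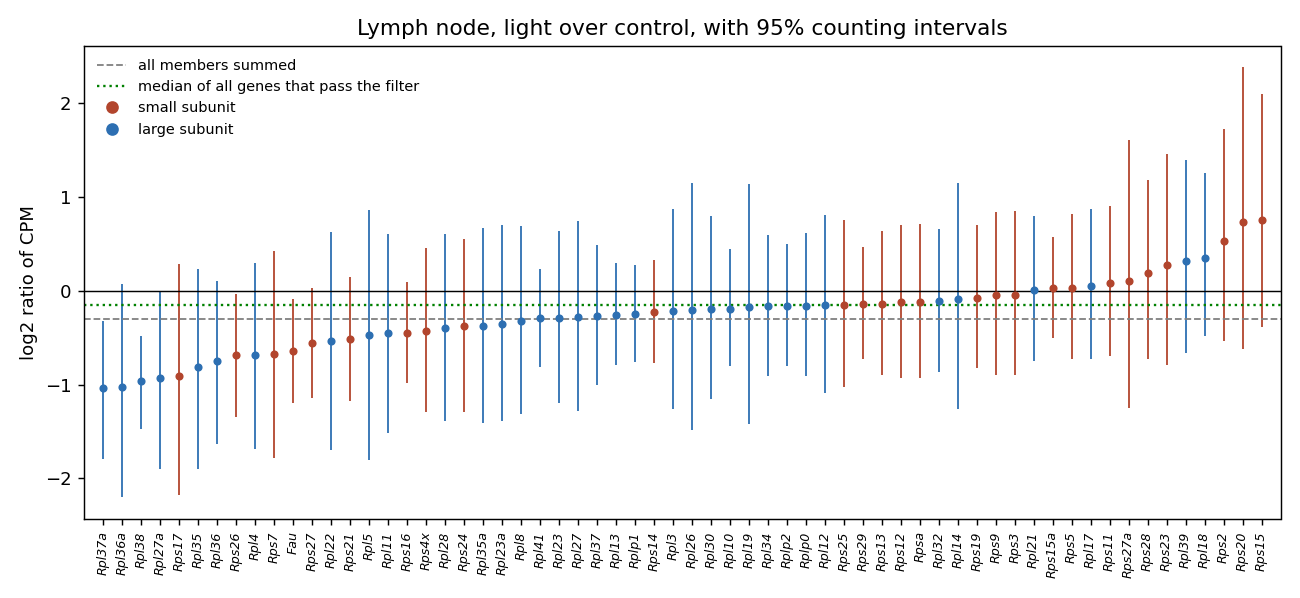
Each point is the log2 ratio of CPM, lymph node light over control, of 1 member, for 62 of the 64 that passed the filter, ordered by value, with its 95% counting interval; red is small subunit, blue large. Most points lie below 0 and near the median of all genes (-0.16, dotted), with Rpl37a lowest at -1.04 and Rps15 highest at 0.75; under median-of-ratios scaling all points move up by 0.48 and most lie above 0.

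Rpl38, a large-subunit protein known for its part in translating Hox mRNAs, stood at 6330 CPM in lymph node control and 3223 CPM in lymph node light, against 3050 in the colon light and 786 in the colon control. The lymph node control is the high one, and on the library-total scale the light libraries of both tissues lie side by side. Their totals hold unequal amounts of ribosomal RNA. Of member counts Rpl38 took 2.72% in the lymph node light and 3.06% in the colon light. The ratio in the lymph node was -0.97 (-1.47 to -0.48) on 72.8 and 68.4 molecule-equivalents. As a share of member counts it went from 4.36% to 2.72%, a log2 change of -0.67 (-1.18 to -0.18). Rpl37a, a small zinc-binding protein of the large subunit, was also highest in the lymph node control, with 3076 CPM in the lymph node control, 1480 in the lymph node light, 1696 in the colon light and 323 in the colon control. Its lymph node ratio was -1.04 (-1.80 to -0.32), and -0.75 as a share of member counts (-1.50 to -0.02). Under median-of-ratios scaling the intervals of both ratios reached 0 or past it, at -0.49 for Rpl38 (-0.99 to 0.004) and -0.56 for Rpl37a (-1.32 to 0.16). The shares of member counts do not depend on that choice.

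Rps26, which lies at the mRNA exit channel of the small subunit, stood at 3397 CPM in lymph node control and 2097 in lymph node light (-0.69, -1.35 to -0.04). It was at 1639 in the colon light and 332 in the colon control. Fau, whose product is cut into a ubiquitin-like peptide and a small-subunit protein, stood at 4526, 2893, 2893 and 1254 CPM in the same order, a lymph node ratio of -0.64 (-1.20 to -0.08). Rpl27a stood at 1879 and 971 CPM in the lymph node control and light libraries (-0.93, -1.90 to -0.01) and at 1225 in the colon light, with no count in the colon control. For Rps26, Fau and Rpl27a the interval as a share of member counts included 0, so a difference from the other members was not resolved. Rpl27a took 1.29% of member counts in the control and 0.821% after light, on 21.6 and 20.6 molecule-equivalents.

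The sequence around the annotated start is shown for the 5 members with the lowest ratios among those whose interval excluded 0 on the library-total scale, because a TOP motif lies at that position. Each line runs 5′ to 3′ on the strand of the gene, from 35 bases before the start to 15 bases from it (RefSeq, GRCm38.p6), and capitals mark a C followed by at least 4 C or T.
Rpl38, chr11:114668545-114668594, plus strand: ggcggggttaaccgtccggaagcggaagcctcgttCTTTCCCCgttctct
Rpl37a, chr1:72711225-72711274, plus strand: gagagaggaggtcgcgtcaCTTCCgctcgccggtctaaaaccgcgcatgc
Rpl27a, chr7:109519160-109519209, plus strand: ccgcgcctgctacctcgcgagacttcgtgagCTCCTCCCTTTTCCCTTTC
Rps26, chr10:128626492-128626541, minus strand: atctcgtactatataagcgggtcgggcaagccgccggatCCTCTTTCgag
Fau, chr19:6057912-6057961, plus strand: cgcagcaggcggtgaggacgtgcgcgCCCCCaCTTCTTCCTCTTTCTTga

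In Rpl38, Rpl27a, Rps26 and Fau such a run lies within 15 bases of the annotated start, and in Rpl37a it does not. The promoter table held 58 of the 78 standard members. Of these, 65.5% had a run within 15 bases of the start on the gene's strand, against 40.3% of all 27025 genes in the table. A run beginning exactly at the annotated start was found in 24.1% of members and 3.01% of all genes. The letters CCGGAAG, the core of sites bound by ETS-family factors, occurred on either strand in the 300 bases of 41.4% of members and 9.93% of all genes. Read on the other strand this motif holds CTTCC, which is itself a run of the kind in capitals, so the searches overlap. Small-subunit and large-subunit members held the run near the start at 66.7% and 64.7%. These 3 searches describe letters in a window, and annotated starts can be off by some bases.

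Structural groups of the ribosome were compared in the lymph node by their summed counts, on the library-total scale, where median-of-ratios scaling adds 0.48 to every value. The 14 proteins of the 40S head gave -0.09 (-0.32 to 0.13) and the 18 of the 40S body and platform -0.28 (-0.46 to -0.11). The 4 stalk proteins, which recruit the translation factors that hydrolyse GTP, gave -0.19 (-0.52 to 0.13). Rplp1 in the stalk stood at 4686 and 3952 CPM, Rplp2 at 2926 and 2617, and the stalk base Rplp0 at 2199 and 1968, all with intervals including 0. Rpl5 and Rpl11, which carry 5S RNA into the ribosome and can bind Mdm2 when assembly stalls, gave -0.47 together (-1.28 to 0.34). The 7 proteins around the tunnel exit gave -0.15 (-0.53 to 0.24) and the remaining 33 large-subunit proteins -0.42 (-0.56 to -0.27). The intervals of all of these groups overlap those of at least one other group.

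Higher after light in the lymph node, without an interval that excludes 0, were Rps15 (729 CPM in the control and 1251 after light, 0.75, -0.38 to 2.10), Rps20 (519 and 881 CPM, 0.73, -0.62 to 2.38) and Rps2 (902 and 1314 CPM, 0.53, -0.53 to 1.73). All 3 belong to the small subunit. Of the 28 small-subunit members tested, 17 lay above the median of the 64, and of the 36 large-subunit members 15 did.

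Other TOP mRNAs, which share the 5′ motif but encode translation factors and partners, gave a summed ratio of 0.07 in the lymph node (-0.27 to 0.41) over 21 genes in the tables. Of the 6 that passed the filter, 0 had an interval that excluded 0 on the library-total scale. Among them Tpt1 stood at 1840 and 1659 CPM, Rack1, which sits on the 40S head, at 1718 and 1501, and Naca, a chaperone at the tunnel exit, at 359 and 849. Ribosome biogenesis factors gave -0.34 (-1.05 to 0.39) over 25 genes, and the 65 mitochondrial ribosomal proteins -0.20 (-0.67 to 0.29). In neither list did a gene pass the filter.

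The light-treated libraries compare the tissues without the colon control. Ribosomal protein mRNA together stood at -0.25 for colon against lymph node (-0.32 to -0.18), but at 0.13 without ribosomal RNA in the total and at 0.29 with median-of-ratios scaling. The median of all genes that passed the filter moved by 0.37 and 0.54 under these choices, from -0.34 to 0.03 and 0.20. Over the 70 members that passed the filter the median was -0.21, against -0.34 for all 304 genes and -0.46 for the 234 that were not members. Members thus lay 0.13 above the median of all genes, a distance that a change of scaling cannot test because it shifts both alike. Without the filter on low counts the distance was -0.17, so its sign depended on the filter. Small-subunit genes gave -0.23 (-0.34 to -0.12) and large-subunit genes -0.27 (-0.37 to -0.17), and both turn positive under the same choices as the sum.

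Beside this, T-cell markers were lower in the colon by -1.43 (-1.77 to -1.10), with Trac at 144 against 812 CPM. Myeloid markers were higher by 2.11 (1.23 to 3.22), 6 of 8 with a count against 4 of 8, with Lyz2 at 1198 against 293 CPM. Mitochondrial ribosomal proteins were lower by -0.85 (-1.27 to -0.44). The part of these cell markers in the member values was not tested.

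On the library-total scale, at least 2-fold lower in the colon were 3 members, Rps4x, Rplp0 and Rpl18, beside 19.4% of all genes tested, and at least 2-fold higher were 0, beside 13.5% (in either direction 3, beside 32.9%). Intervals lay below 0 for 8 members (24.7% of all genes tested) and above 0 for 0 members (11.2%). The counts of 3 and 8 of 70 are 4.29% and 11.4%, both smaller shares than the background. These calls turned with the scaling as well: under median-of-ratios scaling 0 members were at least 2-fold lower and 6 at least 2-fold higher (6.91% and 22.0% of all genes tested), with 0 intervals below 0 and 16 above. Without ribosomal RNA in the totals 0 were 2-fold lower and 2 higher, with 2 intervals below 0 and 5 above. Against the change of all members together, 5 lay below (Rps4x, Rplp0, Rpl18, Rps19 and Rpl13) and 2 above (Rpl23 and Rps7), while 16.4% and 15.1% of all genes tested did. The 5 and 2 of 70 are 7.14% and 2.86%, both smaller shares than the background.

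**Figure D4:**
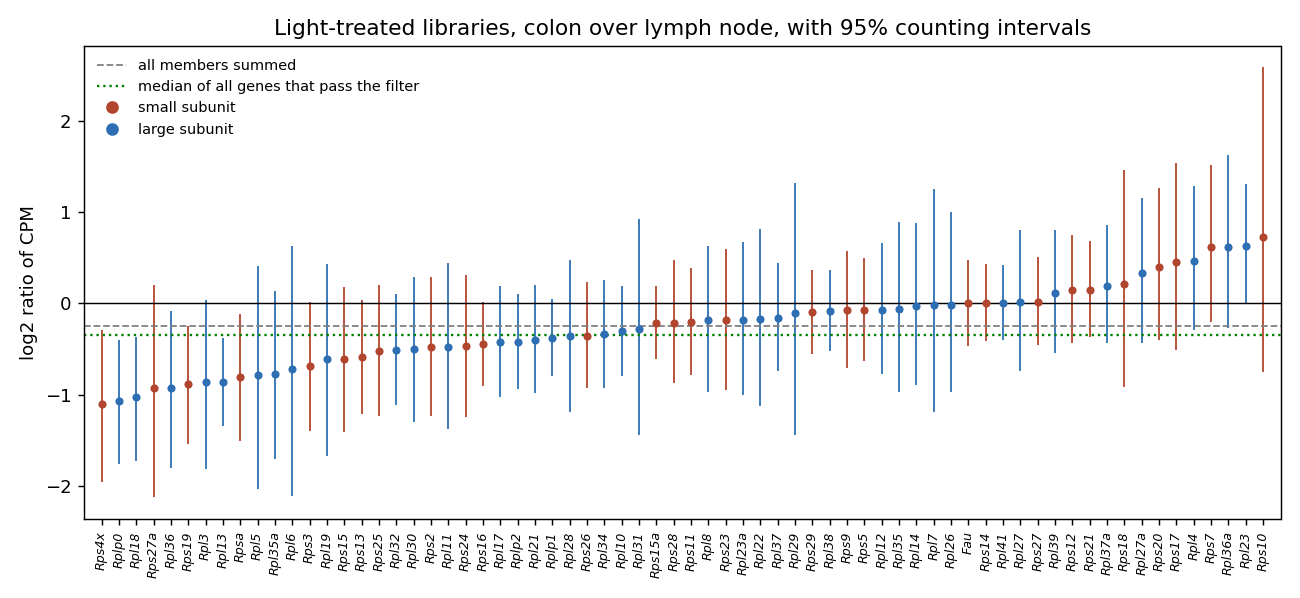
Each point is the log2 ratio of CPM, colon light over lymph node light, of 1 member, for 68 of the 70 that passed the filter, ordered by value, with its 95% counting interval; red is small subunit, blue large. Rps4x is lowest at -1.10 and Rps10 highest at 0.73, and the points spread around the sum of all members (-0.25, dashed); all points move up by 0.37 without ribosomal RNA in the totals and by 0.54 under median-of-ratios scaling, and the sum then lies above 0.

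Rplp0, the base of the stalk and a common reference gene in quantitative PCR, stood at 1968 CPM in the lymph node light library and 932 in the colon light. It was at 2199 in lymph node control and 572 in the colon control, where members were low as a whole and Rplp0 rested on 3.53 molecule-equivalents. Of member counts Rplp0 took 1.51% in lymph node control, 1.66% in lymph node light, 0.936% in colon light and 2.73% in colon control. The order of the controls by share is thus opposite to that by CPM. The ratio between the light libraries was -1.06 (-1.76 to -0.40). The other stalk proteins Rplp1, Rplp2 and Rpl12 stood at -0.37 (-0.79 to 0.05), -0.42 (-0.94 to 0.11) and -0.07 (-0.78 to 0.66).

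Rps4x, an X-linked small-subunit protein, stood at 1352 CPM in the lymph node light and 623 in the colon light library (-1.10, -1.96 to -0.29), with 1826 in lymph node control and 261 in the colon control. Rpl18 stood at 1940 and 942 CPM (-1.03, -1.72 to -0.36). Rpl13 stood at 3523 and 1937 CPM (-0.86, -1.34 to -0.38) on 74.7 and 76.1 molecule-equivalents, the deepest of the 5. Rps19, the gene most often mutated in Diamond-Blackfan anaemia, stood at 2024 and 1089 CPM (-0.88, -1.54 to -0.25). With median-of-ratios scaling all 5 intervals included 0, at -0.52 for Rplp0 (-1.22 to 0.14), -0.56 for Rps4x (-1.42 to 0.25), -0.49 for Rpl18 (-1.18 to 0.18), -0.31 for Rpl13 (-0.80 to 0.16) and -0.34 for Rps19 (upper end 0.29). What does not depend on the scaling is that these 5 lay below the members together.

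By structural group, again on the library-total scale to which median-of-ratios scaling adds 0.54, the stalk gave -0.45 between the light libraries (-0.72 to -0.19) and the Rpl5 and Rpl11 pair -0.60 (-1.31 to 0.11). The 40S head gave -0.24 (-0.41 to -0.07), the 40S body and platform -0.21 (-0.35 to -0.07), the tunnel exit -0.19 (-0.49 to 0.11) and the remaining large-subunit proteins -0.23 (-0.34 to -0.11). Each group's interval overlaps all the others. Other TOP mRNAs gave -0.29 on the same scale (-0.54 to -0.04). Of the 10 that passed the filter, 2 had an interval below 0, the intermediate filament gene Vim (980 CPM in the lymph node and 289 in the colon) and Rack1 (1501 and 765 CPM), and 0 had one above. Ribosome biogenesis factors gave 0.39 (-0.13 to 0.94), with 2 genes passing the filter and both intervals above 0: Ncl, the nucleolar protein nucleolin, at 258 CPM in the lymph node and 775 in the colon, and Nip7 at 271 and 763.

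Rpl23, a large-subunit protein that can also bind Mdm2, ran the other way, with 1315 CPM in the lymph node light and 2042 in the colon light library (0.63, -0.003 to 1.31). As a share of member counts this was 0.87 (0.25 to 1.56). Rps7 stood at 795 and 1226 CPM, 0.86 as a share of member counts (0.05 to 1.77). In the lymph node control Rpl23 was at 1610 CPM, between the light libraries, and Rps7 at 1284 CPM, above both.

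The windows at the start of the 3 members that were at least 2-fold lower in the colon on the library-total scale are shown for comparison with those above, in the same layout and build.
Rplp0, chr5:115559432-115559481, plus strand: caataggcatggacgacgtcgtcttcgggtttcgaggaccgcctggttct
Rps4x, chrX:102189377-102189426, minus strand: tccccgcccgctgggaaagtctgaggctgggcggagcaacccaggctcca
Rpl18, chr7:45718036-45718085, plus strand: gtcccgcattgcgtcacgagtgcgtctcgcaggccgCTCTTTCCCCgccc
Rpl18 has a run within 15 bases of the start, and neither Rplp0 nor Rps4x has one in its window.

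Protein length is a feature that the choice of members did not use. Across members, Spearman's correlation of the log2 ratio with the number of residues was 0.20 in the lymph node (64 members) and -0.32 between the light libraries (70 members). In the latter the median was -0.17 for the 35 shorter members and -0.39 for the 35 longer ones. These are descriptions across genes, with 6 such relations computed (residues, transcript length and coding GC content in 2 comparisons), and all points share the same libraries and depth.

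Both comparisons that follow use the colon control and share it, one also sharing the colon light and the other the lymph node control library with those above. In the colon control 23 of the 78 standard members had no count, 6 small and 17 large. A count of 0 in that library allows up to 485 CPM (3 molecule-equivalents). A further 46 had a count under 3 molecule-equivalents, 9 had at least 3, and 21 rested on 1 recovered molecule.

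Colon light against colon control gave a summed ratio of 2.25 (1.99 to 2.51), 4.74-fold higher, or 2.54 without ribosomal RNA in the total. The 62 members that passed the filter did so through the deeper colon light library, since none reached 20 molecule-equivalents in the control and 12 had no count there. Counts over them are therefore descriptions that support no difference. At least 2-fold higher were 57 of the 62, beside 75.5% of all genes tested, and at least 2-fold lower 0, beside 14.4% (in either direction 57, beside 89.9%). An interval above 0 was found for 38 members (39.9% of all genes tested) and one below 0 for 0 members (13.9%). With the colon light library thinned to the depth of the control, 8 members passed, 7 of them at least 2-fold higher beside 39.5% of the 43 genes that then passed, and the median of all genes went from 2.18 to -2.83. T-cell markers (8 genes) were higher as well, by 2.55 (0.94 to 5.12), and myeloid markers by 1.83 (0.43 to 3.83). Their part in the result was not tested. Rps16, Rps21 and Rpl23, at 2467, 2433 and 2042 CPM in the colon light library and without a count in the control, were higher by at least 5.08-fold, 5.01-fold and 4.21-fold. Among members with a count in both, Rps15a had the highest ratio, with 171 CPM in the control and 3567 after light (4.22, 1.94 to 9.46) on 1.05 molecule-equivalents in the control.

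Colon control against lymph node control gave -2.79 (-3.06 to -2.53), 6.91-fold lower. The 35 members that passed the filter did so, in the same way, with no more than 14.8 molecule-equivalents from the colon control, so counts over them support no difference either. At least 2-fold lower were 34 of 35, beside 67.4% of all genes tested, the exception being Rps14. At least 2-fold higher were 0, beside 29.2% (in either direction 34, beside 96.6%). Intervals lay below 0 for 33 members (67.4% of all genes tested) and above 0 for 0 (28.1%). With the lymph node control thinned to the depth of the colon control, 15 of 16 members were at least 2-fold lower, beside 50.0% of the 58 genes that then passed, and the median of all genes went from -2.18 to -1.02. T-cell markers were lower by -4.11 in the same comparison (-6.78 to -2.60), with 2.65 molecule-equivalents left there, and their part in the result was not tested.

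Rps14, a platform protein of the small subunit whose loss underlies the anaemia of the 5q- syndrome, stood at 4130 CPM in the lymph node control, 3522 in the lymph node light, 3533 in the colon light and 2398 in the colon control. Its colon control level was 1.71-fold below that of the lymph node control. It took 2.84%, 2.98%, 3.55% and 11.4% of member counts in that order. Between the controls its share of member counts differed by 1.99 (1.06 to 2.87), the only one of 35 members with such an interval above the ratio of all members together, as had 33.7% of all genes tested. Below that ratio lay 1 member, Rps16, beside 3.37% of all genes. Rps16 had 4607 CPM in the lymph node control and no count in the colon control. It was 9.49-fold lower with the colon control set at the floor of 485 CPM, leaving out counting error. The colon control value of Rps14 rested on 14.8 molecule-equivalents, or 19.9 recovered molecules.

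For colon light against control, Rps14 stood at 0.55 (-0.22 to 1.44). It was among 2 members with an interval below the ratio of all members together, beside 16.3% of all genes, and 0 members lay above it, beside 0.962%. Without Rps14 the sum of the others was 2.37 in this comparison and -2.92 between the controls.

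**Figure D5:**
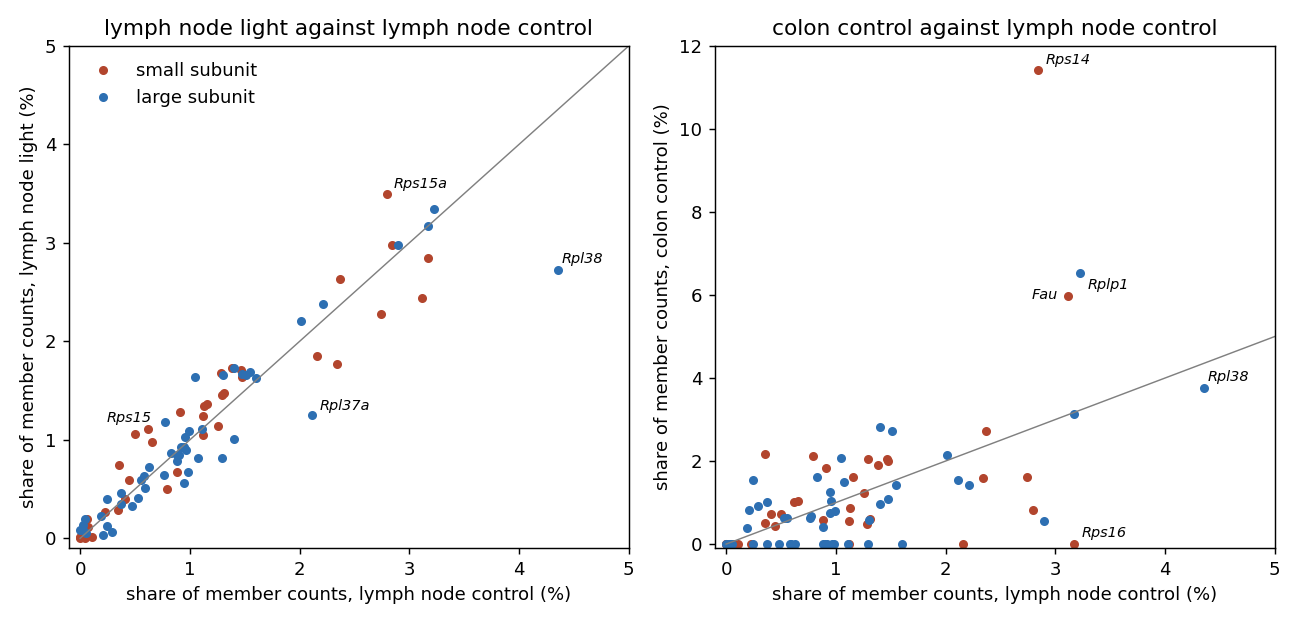
Each dot is 1 of 85 of the 87 members, placed by its percent of all member counts in the lymph node control (horizontal) and in the lymph node light (left, to 5%) or colon control library (right, to 12%); the grey line marks equal shares. In the left panel dots follow the line and Rpl38 (4.36% against 2.72%) and Rpl37a lie below it, while in the right panel Rps14 (2.84% against 11.4%) lies far above it and many members lie at 0.

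The paralogs and copies took little of the counts. Together with Rps19bp1 the 9 held 0.137% of counts in the lymph node control, 0.0896% in the lymph node light, 0.0486% in the colon light and 0.0362% in the colon control, and 0 of the 9 passed the filter in any comparison. Rps27l, a paralog of Rps27 that p53 induces, stood at 509, 344, 53.6 and 106 CPM in that order. Between the light libraries it was lower in the colon by -2.36 (-5.87 to -0.35) on 2.11 and 7.30 molecule-equivalents, under the filter, while Rps27 stood at 2735 and 2702 CPM. Rpl22l1, the paralog of the T-cell development factor Rpl22, stood at 282, 273, 205 and 83.0 CPM, with Rpl22 at 1111, 759, 673 and 134. Rpl36al stood at 306 and 35.6 CPM in the lymph node control and light libraries and had no count in the colon light.

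Reads can be shared between such copies. The coding sequences of Rps27 and Rps27rt are identical over 255 bases, those of Rpl36a and Rpl36al match at 87.9%, Rps27 and Rps27l at 76.1%, Rpl22 and Rpl22l1 at 68.2%, and Rpl7 and Rpl7l1 at 54.1%. Pseudogenes named -ps had 0.955 to 1.16 counts per 100 member counts in the 3 deeper libraries and 4.39 in the colon control, on 5.69 molecule-equivalents there. How reads that fit several copies were counted, not given in the sources used here, bears on this, and levels of single members are uncertain to that extent.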

How the data were processed

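The authors deposited whole-number counts per gene and barcode column for 4 libraries, with poly(A) RNA primed by an oligo-dT probe with a sample barcode (7 bases) and a molecular identifier (8 bases), per the labels. The submitters' processing notes name FastQC, STAR 2.5.1a and mm10; the read counter and its settings are among what was not given in the sources used here. Lines without a gene name were left out.

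Columns were summed per gene. Columns per molecule (size-weighted 84.4 and 50.4 for lymph node control and light, 49.9 and 70.2 for colon light and control) came from column patterns shared by at least 2 genes, which solved 92.6% to 96.7% of genes holding 39.0% to 62.9% of counts to within 0.01. Molecule-equivalents are sums divided by these columns per molecule. Fewer members were solved: of those with a count, 36 of 84 in lymph node control and 56 of 85 in lymph node light. In colon light 26 of 84 were solved, and in colon control 53 of 58. Log2 ratios of CPM used a prior count of 0.5 scaled to depth, exact Clopper-Pearson 95% intervals, a filter of 20 molecule-equivalents and a size limit of 2-fold; small to large ratios used the exact conditional interval of the odds ratio. The floor of 3 molecule-equivalents was 261, 141, 76.4 and 485 CPM in that order. Intervals and column patterns were tested only on data simulated from the same counting model and patterns. Such a test cannot check the lines left unsolved. Repeated lines (Foxp3 everywhere; in colon control also Cd4, Cd3d, Cd3e and Cd3g) were dropped where the correlation by position exceeded 0.5.

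Members and lists were chosen with earlier results of these data known. Members named with values were the 30 with most counts, up to 5 per direction whose interval excluded 0 in each comparison, paralog pairs, and stalk and 5S RNA-binding proteins; Rpl27a, Rpl36a, Rps2, Rps7, Rps10, Rps15, Rps20, the copies and the start windows were chosen after values were seen. Gene positions are from GENCODE M21, starts from RefSeq. Single values of 2 members, and their points in plots by gene, are not reported here. A pooled sample holding a barcode sheet was not used. Alternatives covered scaling, totals, filters, prior, members, depth and shared barcodes. Software was scipy 1.17.1, numpy 2.4.6, matplotlib 3.10.9 and pandas 2.3.3 under Python 3.11.15.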

Additional observations from a re-analysis of the deposited data

Results flagged for a closer look

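The ratio of light to control had opposite signs in the tissues, on the library-total scale, for the members together (-0.30 in the lymph node and 2.25 in the colon), the small subunit (-0.22 and 2.06) and the large subunit (-0.36 and 2.42). The same held for Fau (-0.64 and 1.19), Rpl37a (-1.04 and 2.32), Rpl38 (-0.97 and 1.93) and Rps26 (-0.69 and 2.23). With 1 library per group the difference between tissues was not tested, and median-of-ratios scaling turns the sum in the lymph node to 0.19. Under that scaling 0 members had a lymph node interval below 0. Every colon value rests on the colon control library, where all members together came to 130 molecule-equivalents. Fau, Rpl37a, Rpl38 and Rps26 had 7.75, 2.00, 4.86 and 2.05 there. These genes passed the filter in the colon through the colon light library, so their colon values support no difference.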

How the results depend on the processing

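Median-of-ratios scaling turned the sign of the summed ratio and of the median in the lymph node (0.19 and 0.26) and between the light libraries (0.29 and 0.33, with 6 members 2-fold higher and 0 lower), and raised them in the colon to 3.58 and 3.64. That scaling did not centre the genes that passed the filter on 0. Their median went to 0.33 in the lymph node, 0.20 between the light libraries and 3.51 in the colon. Totals without ribosomal RNA and Gm12374 turned the sign between the light libraries (sum 0.13, median 0.16), took the lymph node median to -0.15 with 0 members 2-fold apart, gave 2.54 for the colon sum, and gave shares of 17.1% in lymph node control, 14.7% in lymph node light, 16.0% in colon light and 2.75% in colon control. The 2 members 2-fold apart in the lymph node became 3 with median-of-ratios scaling, all higher where the 2 had been lower, 11 without a filter, 1 at 50 molecule-equivalents, 0 with a prior count of 2, 1 with pseudogene counts added and 1 with each recovered molecule counted once. Without a filter there were 13 between the light libraries and 77 between the controls; at 50 molecule-equivalents 29 in the colon and 6 between the controls; with the deeper library thinned 7 in the colon (median 2.03) and 15 between the controls. The cause was not tested, beyond fewer or more members passing the filter. Of the values for whole groups under alternatives, 144 stayed inside the interval of the main setting, or near the main value where they were counts. A further 22 moved beyond that, and 6 turned sign where the main interval excluded 0. For single members these numbers were 1237, 18 and 0. A member whose main interval included 0 could change sign and still be among the 1237. Counting molecules once, leaving out Rps14 and the share alternatives were chosen after seeing the data. Thinning scaled counts to their expected value, and shared barcodes were not run for the colon control, which shares at most 5 barcodes with another library. No paired analysis was possible because each group has 1 library. Depth limits the colon control most.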
